A study of Mus musculus with 9 samples.

Results

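Imprinted genes are expressed mainly from 1 parental copy, and most of them sit in clusters. The 10 genes described here, Zdbf2, Plagl1, Grb10, Slc38a4, Impact, Nnat, Blcap, Gnas, Igf2r and Trappc9, are imprinted genes that, but for the overlapping pair Nnat and Blcap, lie at separate places in the mouse genome, outside the large H19-Igf2, Dlk1-Meg3 and Peg3 clusters. They were chosen by name, and each was found in the deposited expression table by the position and strand of its locus in build GRCm38, not by the names printed there; strand was read from the order of the blocks of the table. All 10 had a locus, among 12658 genes that could be named in this way from 54913 loci. A gene with several loci was represented by a locus of its own strand that could be given to no other gene, and, among those, by the one with the highest mean over the 9 libraries.

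RNA was sequenced from 3 groups of 3 libraries, all from mice with the allele Gt(ROSA)26Sortm1(rtTA*M2)Jae, which makes the doxycycline-responsive activator rtTA, and the allele Col1a1tm3(tetO-Pou5f1,-Sox2,-Klf4,-Myc)Jae, which makes Oct4, Sox2, Klf4 and c-Myc when doxycycline is given. SSC were primary spermatogonial stem cells at passage 0, taken from the testes of pups at postnatal day 6 by differential plating and magnetic sorting for the surface receptor Gfra1. SSCiPSC were induced pluripotent stem cells made from such SSC, and fiPSC were made from fibroblasts of male fetuses. Both were clonal lines labelled as passages 10 to 11, grown with LIF. The methods of the study describe sorting for the surface antigen SSEA1 before gene expression was measured and give later passages for it than the labels do. The labels name doxycycline in the medium, whereas the methods of the study describe its withdrawal after passage 8. Fibroblasts themselves were not sequenced, so the start of the fiPSC is not analysed here. Nothing says that the SSC libraries came from separate animals, and p-values then measure only the spread between these libraries.

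Values are FPKM, fragments per kilobase of transcript and 1000000 fragments, so levels can be compared between genes. The SSC libraries were shallower than the others. From the smallest steps of the FPKM values, the SSC libraries held about 1750000, 4570000 and 1370000 fragments, the SSCiPSC libraries 15600000, 13700000 and 15100000, and the fiPSC libraries 13200000, 17500000 and 15200000. Depth therefore moves with the contrast of SSC against iPSC, and the 2 cannot be told apart in these data. All 10 genes were at 1.46 FPKM or more in each of the 9 libraries, so none passed the filter on low values through 1 group alone.

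In imprinting, a differentially methylated control region carries DNA methylation on the copy from 1 parent, set in the egg or in sperm, and the methylated and unmethylated copies then behave differently for life. The marks are erased in primordial germ cells and set anew according to the sex of the germ line, so male germ cells carry the paternal pattern on both copies. Zfp57, a zinc finger protein of early embryos and embryonic stem cells, binds methylated control regions at a motif whose core is TGCCGC and recruits Trim28, which holds the mark in place. As background, Zdbf2, Plagl1, Slc38a4, Impact and Nnat are known for expression from the paternal copy. Igf2r and, outside neurons, Grb10 are known for maternal expression, and Trappc9 and Blcap for a maternal bias seen mainly in brain. Gnas gives transcripts of both kinds, maternal for Nesp and paternal for XLas. None of these values separates the copies, so each level below is the sum of both.

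Promoters were looked up for the core of this motif. The RefSeq table for GRCm38.p6 gives 300 bases around each annotated start, 250 before and 50 after it, and held 15 promoters of 8 of the genes. TGCCGC, or GCGGCA on the other strand, was found in 4 of the 15, 1 each at Zdbf2, Plagl1, Nnat and Grb10, against 11.6% of all 32851 promoters. The promoter of the upstream Zdbf2 start held it 3 times, and 0.234% of all promoters held it at least 3 times. These 4 are shown 5′ to 3′ on the strand of the gene, with each match in capitals, because they are the members whose start carries the letters and because 1 of these genes rose and 3 fell. Zdbf2 is from chr1:63200108-63200407 (plus strand), Plagl1 from chr10:13090582-13090881 (plus), Nnat from chr2:157559828-157560127 (plus) and Grb10 from chr11:12037371-12037670 (minus).
Zdbf2: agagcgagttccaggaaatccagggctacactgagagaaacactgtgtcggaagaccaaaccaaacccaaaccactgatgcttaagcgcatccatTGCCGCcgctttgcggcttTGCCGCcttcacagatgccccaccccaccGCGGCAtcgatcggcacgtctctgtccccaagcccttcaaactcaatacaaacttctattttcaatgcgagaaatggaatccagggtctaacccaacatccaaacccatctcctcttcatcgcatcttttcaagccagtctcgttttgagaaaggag
Plagl1: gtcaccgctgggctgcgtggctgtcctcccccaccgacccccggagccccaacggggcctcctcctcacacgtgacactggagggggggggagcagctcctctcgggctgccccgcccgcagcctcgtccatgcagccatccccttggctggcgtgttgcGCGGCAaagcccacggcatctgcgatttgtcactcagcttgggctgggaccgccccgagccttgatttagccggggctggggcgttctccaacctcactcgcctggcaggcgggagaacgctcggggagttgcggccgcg
Nnat: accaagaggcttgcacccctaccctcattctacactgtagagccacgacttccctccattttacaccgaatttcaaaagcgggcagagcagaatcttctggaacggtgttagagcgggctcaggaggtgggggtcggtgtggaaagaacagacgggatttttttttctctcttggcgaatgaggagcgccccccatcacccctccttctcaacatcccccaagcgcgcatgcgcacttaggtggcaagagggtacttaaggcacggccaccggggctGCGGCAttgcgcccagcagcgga
Grb10: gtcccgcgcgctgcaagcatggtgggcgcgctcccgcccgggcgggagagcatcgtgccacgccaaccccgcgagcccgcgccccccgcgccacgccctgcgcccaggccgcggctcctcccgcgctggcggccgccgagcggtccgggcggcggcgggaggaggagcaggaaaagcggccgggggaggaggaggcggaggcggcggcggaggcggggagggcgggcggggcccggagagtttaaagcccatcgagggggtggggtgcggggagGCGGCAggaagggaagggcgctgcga
The Zdbf2 and Plagl1 matches lay before the start and those of Nnat and Grb10 reached past it. CpG dinucleotides numbered 15 in the Zdbf2 window, 26 in Plagl1, 17 in Nnat and 45 in Grb10, against a median of 7 over all promoters, whereas each of the 3 annotated starts of Slc38a4 had 5. Promoters without the motif were as rich in CpG, with 38 at the second Zdbf2 start, 34 at Igf2r, 16 to 40 at the 4 starts of Gnas and 17 at Blcap; the second Grb10 start had 9. The core of the motif itself holds a CpG, and the share over all promoters was not matched for CpG number. A match is a description of the letters and does not show that a protein is bound there.

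Of the 10 genes, 3 rose from SSC to SSCiPSC, 5 fell and 2 did not pass the test (limma on log2(FPKM + 1), adjusted p under 0.05 over all loci tested). The 3 that rose, Slc38a4, Impact and Zdbf2, are all known for paternal expression. The 5 that fell were Grb10 and Blcap, known for maternal expression, Plagl1 and Nnat, known for paternal expression, and Gnas. Igf2r and Trappc9, both known for maternal expression, did not pass. Such calls are common in this contrast, since 50.3% of all loci tested were called, 26.2% higher and 24.1% lower. The same 3 genes rose and the same 5 fell in fiPSC against SSC, where 51.8% of loci were called, 28.0% higher and 23.7% lower; both comparisons share the SSC libraries and are not independent. The libraries of both groups lay fully apart for 9 genes in SSCiPSC against SSC, as at 59.8% of loci tested, and for 8 in fiPSC against SSC, as at 61.6%.

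By known allele, the 5 paternal genes gave 3 higher and 2 lower, with log2 fold changes in SSCiPSC against SSC from -2.49 to 4.65 and a median of 0.98. The 4 maternal genes gave 0 higher, 2 lower and 2 not past the threshold, from -2.79 to -0.01 with a median of -0.44. Over all loci the median was 0.11. The paternal genes thus went both ways, and no maternal gene rose. With 5 and 4 genes these are counts only, and no test of the difference between them was made.

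**Figure D1:**
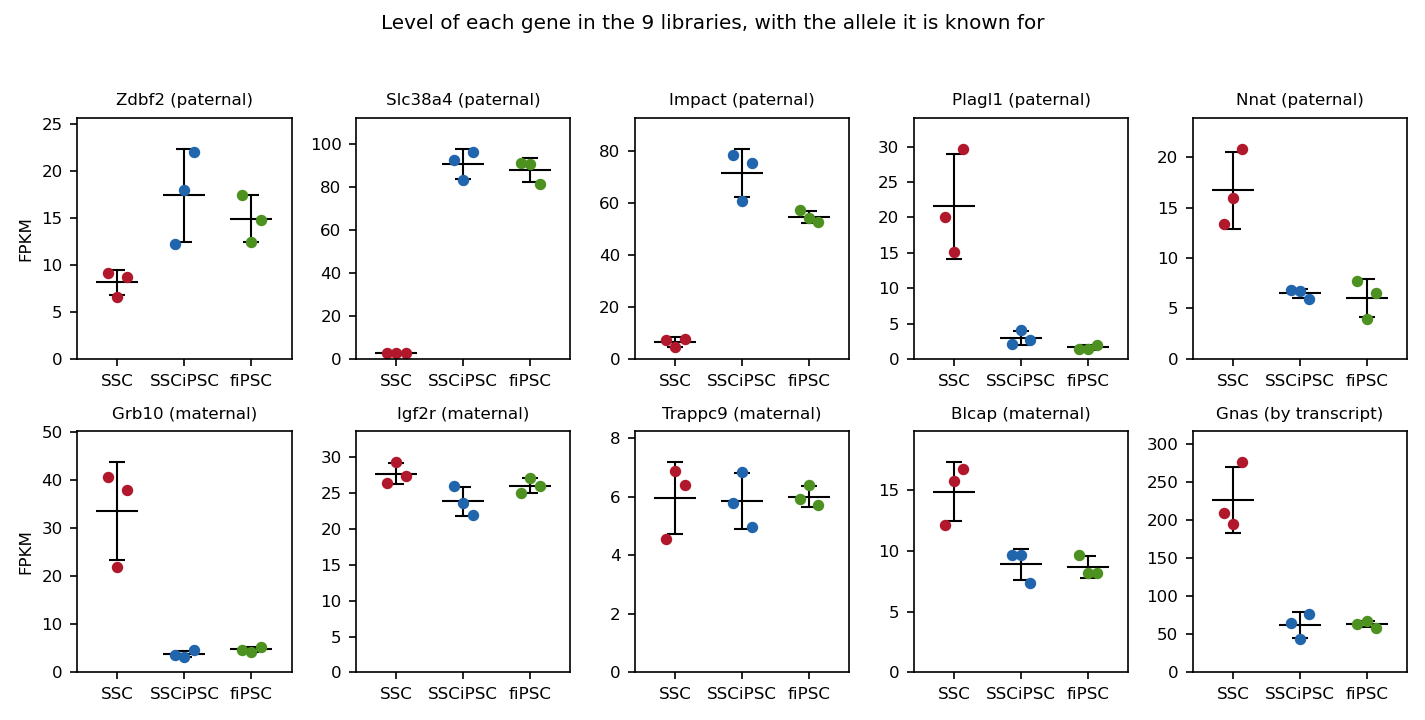
FPKM of each gene on its own linear axis from 0, with 1 point per library for SSC, SSCiPSC and fiPSC and a black bar for the mean ± SD of 3 libraries; the allele each gene is known for is in parentheses. SSC points lie apart from all iPSC points for 8 of the genes, while SSC and fiPSC overlap for Igf2r and all 3 groups overlap for Trappc9.

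The order of the levels changed with the cell type. In SSC the highest mean was that of Gnas with 227 FPKM, followed by Grb10 with 33.5, Igf2r with 27.7, Plagl1 with 21.6, Nnat with 16.7 and Blcap with 14.8, and the lowest was Slc38a4 with 2.67. In SSCiPSC Slc38a4 came first with 91.0 FPKM, followed by Impact with 71.4 and Gnas with 62.2, and Grb10 with 3.85 and Plagl1 with 2.96 came last. Neighbours in this order often lay within their spread, as did Grb10 and Igf2r in SSC, where Grb10 ranged from 21.9 to 40.7 FPKM and Igf2r from 26.4 to 29.2 FPKM.

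Slc38a4 encodes a sodium-coupled transporter of neutral amino acids and gave the largest change of the 10. Its locus spans chr15:96994749-97060686 on the minus strand and covers the whole gene. It stood at 2.57, 2.53 and 2.90 FPKM in SSC, at 93.0, 83.3 and 96.7 FPKM in SSCiPSC and at 91.5, 91.0 and 81.6 FPKM in fiPSC. The SSC values are close to each other and far under every iPSC value, although they rest on only about 19.2, 49.3 and 16.9 fragments. The log2 fold change was 4.65 ± 0.14 (SE) in SSCiPSC against SSC (limma, adjusted p = 2.0e-05), a fold of 25.1 in FPKM + 1 with a 95% interval from 19.7 to 31.9 (the log2 value is 5.04 with 0.1 added in place of 1), and 4.60 ± 0.12 in fiPSC against SSC (adjusted p = 1.2e-05).

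Of 8 other SLC38 transporters listed, all had a locus and 7 were tested in SSCiPSC against SSC. Over all loci tested, 26.2% were higher and 24.1% lower. Slc38a1 rose by 2.61 on the log2 scale, Slc38a7 by 1.07 and Slc38a10 by 0.90, while Slc38a5 fell by 2.21 and Slc38a9 by 1.09. Slc38a2, with a log2 difference of 0.24, and Slc38a6, with 0.10, did not pass, and Slc38a3, at 0.94 to 1.30 FPKM in SSC, was under the filter. Slc38a1 and Slc38a2 lie next to Slc38a4 on chromosome 15. Slc38a1, a glutamine transporter, went from 5.16, 4.37 and 7.71 FPKM in SSC to between 31.9 and 45.8 FPKM in SSCiPSC, whereas Slc38a2 was at 63.5 to 83.3 FPKM in SSC and at 78.4 to 97.05 FPKM in SSCiPSC.

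Impact encodes an inhibitor of Gcn1-dependent activation of the kinase Gcn2, which slows translation when amino acids run short. Its locus, chr18:12955851-12992801 on the plus strand, closely matched the annotated gene. Impact was at 7.43, 4.46 and 7.78 FPKM in SSC, at 78.2, 60.8 and 75.1 FPKM in SSCiPSC and at 57.2, 54.1 and 52.6 FPKM in fiPSC. All iPSC libraries were above all SSC libraries, and all 3 fiPSC libraries were below all 3 SSCiPSC libraries. The log2 fold changes were 3.28 ± 0.23 in SSCiPSC against SSC (limma, adjusted p = 0.000155) and 2.91 ± 0.20 in fiPSC against SSC (adjusted p = 0.000157).

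Of 9 genes listed for the Gcn2 pathway, which include other kinases of the same substrate, 7 had a locus and were tested. In SSCiPSC against SSC 4 were higher, 1 lower and 2 not past the threshold, where 26.2% of all loci were higher and 24.1% lower. The median log2 difference of the 7 was 0.49, against 0.11 over all loci. Eif2ak2, the kinase activated by double-stranded RNA, rose by 2.30 on the log2 scale. Asns, which makes asparagine and is a target of the pathway, rose by 2.2, from 40.4, 51.9 and 56.5 FPKM in SSC to 223, 199 and 272 FPKM in SSCiPSC. Eif2s1, the substrate of these kinases, rose by 1.77, and Eif2ak4, which encodes Gcn2 itself, by 0.49. Eif2ak3 fell by 0.49. Gcn1l1, with a log2 difference of 0.36, and Ddit3, with -0.05, did not pass.

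Zdbf2 encodes a zinc finger protein. The locus used, chr1:63303677-63309183 on the plus strand, is 1 stretch within the gene, which runs from 63273265 to 63314576. Zdbf2 stood at 9.19, 6.65 and 8.71 FPKM in SSC, at 12.3, 17.97 and 22.1 FPKM in SSCiPSC and at 17.5, 12.5 and 14.8 FPKM in fiPSC. The lowest iPSC library was above the highest SSC library, but the SSCiPSC libraries differed among themselves by about as much as the group means did. The log2 fold change was 0.98 ± 0.26 in SSCiPSC against SSC (limma, adjusted p = 0.018) and 0.80 ± 0.19 in fiPSC against SSC (adjusted p = 0.014). The first call was lost without SSC 2, SSCiPSC 2 or SSCiPSC 3 (log2 differences from 0.80 to 0.94, adjusted p from 0.050 to 0.072), and the second without fiPSC 1 (0.68, adjusted p = 0.063) or fiPSC 3 (0.79, adjusted p = 0.055).

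Further loci at Zdbf2 moved in the same direction. The plus-strand locus before it, chr1:63182644-63303595, which also covers the noncoding RNA Platr12 and the upstream start shown above, was at 15.2, 9.09 and 10.3 FPKM in SSC and at 22.4, 27.3 and 32.2 FPKM in SSCiPSC (log2 fold change 1.19 ± 0.24, adjusted p = 0.0063). It had the higher mean of the plus-strand loci but could not be given to 1 gene. A locus without strand at the 3′ end, chr1:63309599-63314234, went from 3.67, 3.82 and 3.72 FPKM in SSC to 5.64, 9.48 and 10.0 FPKM in SSCiPSC (0.95 ± 0.26, adjusted p = 0.023). On the minus strand of the first interval, where Gpr1 lies, the locus stood at 0, 0.141 and 0.471 FPKM in SSC and between 3.72 and 6.77 FPKM in SSCiPSC.

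Plagl1 encodes a zinc finger transcription factor that acts on many other imprinted genes. Its locus is chr10:13090723-13128010 on the plus strand, which begins near the start whose promoter is shown above. Plagl1 was at 20.1, 15.1 and 29.7 FPKM in SSC, at 2.08, 4.12 and 2.68 FPKM in SSCiPSC and at 1.46, 1.46 and 2.02 FPKM in fiPSC. No iPSC library came near an SSC library, and the highest fiPSC value was under the lowest SSCiPSC value. The log2 fold change was -2.49 ± 0.32 in SSCiPSC against SSC (limma, adjusted p = 0.0010) and -3.05 ± 0.27 in fiPSC against SSC (adjusted p = 0.00031).

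A locus without strand at the 3′ end of Plagl1, chr10:13128968-13131983, gave the same picture, with 22.6, 16.4 and 32.6 FPKM in SSC, 2.26, 4.21 and 2.95 FPKM in SSCiPSC and 1.37, 1.33 and 1.43 FPKM in fiPSC. Of its relatives, Plagl2 fell by 1.25 on the log2 scale in SSCiPSC against SSC and Plag1, with a difference of 0.11, did not pass. Of the genes listed as neighbours of Plagl1, Ltv1, which serves in assembly of the small ribosomal subunit, rose by 0.92 and Phactr2, which encodes a regulator of phosphatase and actin, fell by 2.12.

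Nnat and Blcap share 1 interval, chr2:157555611-157566267, since Nnat lies on the plus strand within an intron of Blcap on the minus strand. Nnat encodes neuronatin, a small membrane protein of the endoplasmic reticulum, and Blcap a small protein first described in bladder cancer. Nnat was at 13.3, 15.9 and 20.8 FPKM in SSC, at 6.82, 6.72 and 5.95 FPKM in SSCiPSC and at 7.70, 3.92 and 6.48 FPKM in fiPSC. Blcap was at 12.1, 15.7 and 16.7 FPKM in SSC, at 9.65, 9.60 and 7.38 FPKM in SSCiPSC and at 9.66, 8.18 and 8.12 FPKM in fiPSC. Both genes were lower in every iPSC library than in any SSC library, though Blcap by a narrower gap.

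The log2 fold change of Nnat was -1.22 ± 0.21 in SSCiPSC against SSC (limma, adjusted p = 0.0035) and -1.35 ± 0.27 in fiPSC against SSC (adjusted p = 0.0072). That of Blcap was -0.68 ± 0.20 (adjusted p = 0.030) and -0.71 ± 0.17 (adjusted p = 0.014). The libraries were made with a stranded kit, but whether the strand was used in counting is not given in the sources used here, so reads of this pair may be split between them with error. The Blcap call in SSCiPSC against SSC was the least secure of the 8, being lost under 7 of 16 alternatives, including without SSC 2, SSC 3 or any 1 SSCiPSC library (log2 differences from -0.74 to -0.56, adjusted p from 0.059 to 0.10). In fiPSC against SSC the Blcap call was lost under 3 of 16 alternatives (limma, adjusted p up to 0.058).

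Grb10 encodes an adaptor protein that binds the insulin and IGF1 receptors and restrains their signal. Its locus is chr11:11930301-12037398 on the minus strand. It stood at 40.7, 21.9 and 38.1 FPKM in SSC, at 3.66, 3.28 and 4.60 FPKM in SSCiPSC and at 4.77, 4.29 and 5.30 FPKM in fiPSC. Every SSC library was several times above every iPSC library. With log2 fold changes of -2.79 ± 0.28 in SSCiPSC against SSC (limma, adjusted p = 0.00042) and -2.53 ± 0.26 in fiPSC against SSC (adjusted p = 0.00045), Grb10 had the largest decrease of the 10 genes in the first comparison, and Plagl1 in the second.

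Among 16 tested genes of insulin and IGF signalling, of 17 listed, 5 were higher, 8 lower and 3 not past the threshold in SSCiPSC against SSC, where 26.2% of all loci were higher and 24.1% lower, with a median log2 difference of -0.92 against 0.11 over all loci. The receptor Igf1r fell by 3.45 on the log2 scale, from 101, 104 and 89.9 FPKM in SSC to 8.07, 7.82 and 8.29 FPKM in SSCiPSC. Grb14, the closest relative of Grb10, fell by 4.07, from 21.8, 21.1 and 22.2 FPKM to between 0.324 and 0.410 FPKM, and the binding protein Igfbp3 fell by 3.78. Those with the largest increases were Igfbp2, another binding protein, by 4.17, from 24.3, 28.1 and 52.8 FPKM to 686, 512 and 654 FPKM, the adaptor Grb7 by 2.58, and Igf2bp3, which binds Igf2 mRNA, by 2.19. Of the 8 lower genes, Grb14, Igf1, Irs1 and Igfbp5 passed the filter through SSC alone and so had to differ. Igf2 had no locus of its own and was not analysed here.

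Gnas encodes the stimulatory G protein alpha subunit, which couples hormone receptors to cAMP production, and had the highest level of the 10 in SSC. Its plus-strand locus, chr2:174281695-174346636, takes in all of its alternative first exons, so the Nesp, XLas and Gs alpha transcripts cannot be told apart. It was at 209, 195 and 276 FPKM in SSC, at 65.5, 44.2 and 77.0 FPKM in SSCiPSC and at 63.7, 67.1 and 59.0 FPKM in fiPSC. All iPSC libraries lay well under all SSC libraries. The log2 fold change was -1.87 ± 0.24 in SSCiPSC against SSC (limma, adjusted p = 0.0011) and -1.81 ± 0.15 in fiPSC against SSC (adjusted p = 0.00025).

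A minus-strand locus of the same interval, where the antisense RNA Nespas and the gene model Gm20721 lie, went the other way. It stood at 1.81, 2.29 and 3.14 FPKM in SSC, at 10.55, 11.3 and 12.4 FPKM in SSCiPSC and at 11.8, 11.9 and 14.2 FPKM in fiPSC (log2 fold changes 1.88 ± 0.23, adjusted p = 0.00095, and 2.01 ± 0.21, adjusted p = 0.00055). A second minus-strand locus there, at 0, 1.85 and 2.87 FPKM in SSC and 2.56 to 3.72 FPKM in SSCiPSC, did not pass. Neither can be given to 1 of the genes.

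Of 15 tested genes of cAMP signalling, of 18 listed, 0 were higher, 9 lower and 6 not past the threshold in SSCiPSC against SSC, against 26.2% of all loci higher and 24.1% lower, with a median log2 difference of -0.62 against 0.11; in fiPSC against SSC 1 was higher and 9 were lower, against 28.0% and 23.7% of all loci. Prkar2b, a regulatory subunit of protein kinase A, fell by 3.64, from 33.3, 39.4 and 44.8 FPKM in SSC to 2.47, 1.81 and 2.34 FPKM in SSCiPSC. The G protein gamma subunit Gng12 fell by 3.15 and the adenylyl cyclase Adcy7 by 2.32. Adcy6 and Prkar1b, 2 of the 9 lower genes in SSCiPSC, passed the filter through SSC alone, as did Prkar1b in fiPSC against SSC.

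**Figure D2:**
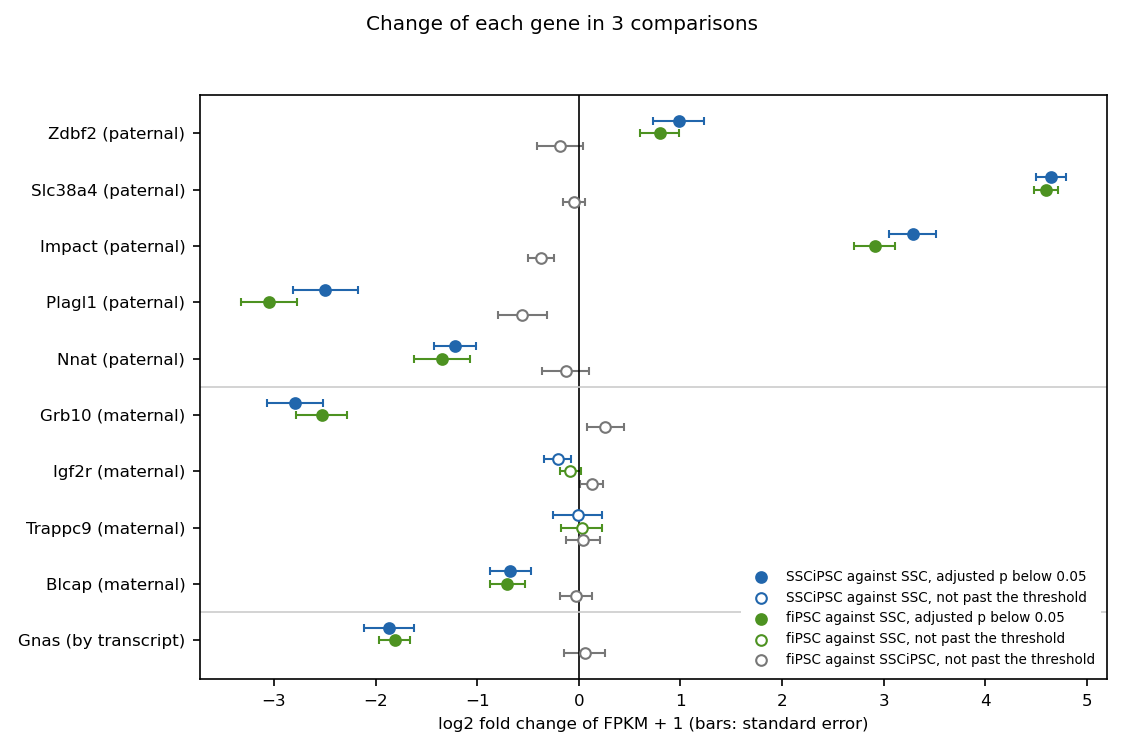
Log2 fold change of FPKM + 1 with its standard error for each gene, grouped by the allele it is known for, in SSCiPSC against SSC (blue), fiPSC against SSC (green) and fiPSC against SSCiPSC (grey); filled points have an adjusted p under 0.05. Slc38a4, Impact and Zdbf2 lie to the right in both comparisons with SSC, 5 genes lie to the left, and all 10 grey points are open.

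Igf2r encodes the receptor that carries mannose 6-phosphate-tagged enzymes and removes IGF2 from the cell surface. The table cut it into 3 minus-strand loci. The 3′ piece, chr17:12682113-12723157, had the highest mean and was at 26.4, 29.2 and 27.4 FPKM in SSC, at 26.0, 23.6 and 21.9 FPKM in SSCiPSC and at 25.0, 27.1 and 26.0 FPKM in fiPSC. SSC lay just above SSCiPSC and overlapped fiPSC. The log2 difference was -0.21 ± 0.13 in SSCiPSC against SSC (limma, adjusted p = 0.24), with a 95% interval from -0.53 to 0.11, and -0.09 ± 0.10 in fiPSC against SSC (adjusted p = 0.52), with an interval from -0.33 to 0.16. After quantile normalization the differences were -0.52 (adjusted p = 0.020) and -0.33 (adjusted p = 0.040), so whether Igf2r is called rests on the scaling.

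Along Igf2r the difference was larger at the 5′ end. The middle piece, chr17:12725312-12739717, was at 27.1, 34.3 and 26.9 FPKM in SSC and at 25.1, 20.7 and 22.5 FPKM in SSCiPSC, with a log2 difference of -0.35 ± 0.16 that did not pass (adjusted p = 0.11). The 5′ piece, chr17:12740048-12770265, was at 17.1, 13.5 and 18.2 FPKM in SSC, at 6.86, 8.42 and 8.38 FPKM in SSCiPSC and at 10.4, 9.62 and 9.57 FPKM in fiPSC, and fell by 0.95 ± 0.19 in SSCiPSC (adjusted p = 0.0062) and by 0.66 ± 0.15 in fiPSC (adjusted p = 0.012). The difference between the pieces was not tested.

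The 5′ piece overlaps the start of Airn, a long noncoding RNA made from the paternal copy on the opposite strand, chr17:12741311-12860136 on the plus strand, whose transcription is known to silence Igf2r on that copy. In the interval of the 5′ piece lay 17 loci without strand, whose FPKM summed to 164, 88.5 and 117 in SSC, to 8.65, 8.37 and 9.97 in SSCiPSC and to 13.9, 10.7 and 11.0 in fiPSC. Airn had no single locus of its own, so the 33 loci without strand inside it beyond the start of Igf2r, before Mas1, were joined, a step chosen after seeing the data. Of these, 31, 31 and 22 were above 0 in the SSC libraries, 8, 6 and 2 in SSCiPSC and 16, 7 and 9 in fiPSC, although the SSC libraries were the shallowest.

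The 9 of these loci that were at least 600 bp long, 7275 bp in all, held 43, 71 and 28 fragments in SSC, 9, 4 and 0 in SSCiPSC and 13, 3 and 6 in fiPSC. Per 1000000 fragments this is 24.6, 15.5 and 20.5 in SSC, 0.575, 0.292 and 0 in SSCiPSC, where 0 fragments allow up to 0.199 in SSCiPSC 3, and 0.986, 0.171 and 0.394 in fiPSC. Every SSC library was above every iPSC library, and the exact permutation test of 3 against 3 libraries can give no p under 0.1. The strand of these loci is not known, and the FPKM of Igf2r and Airn where they overlap may share reads.

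**Figure D3:**
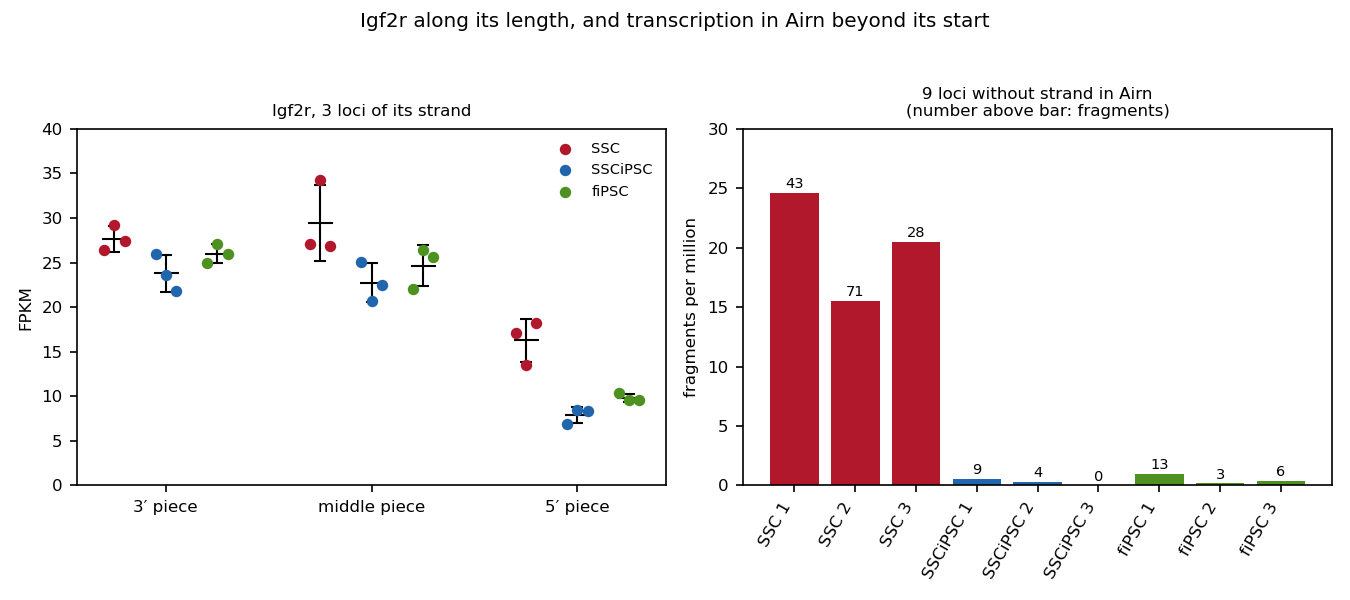
Left, FPKM of the 3 minus-strand loci of Igf2r, ordered from 3′ to 5′, with 1 point per library and the mean ± SD of 3 libraries; right, fragments per 1000000 in 9 loci without strand in Airn, 1 bar per library, with the number of fragments above it. The 3′ pieces of the groups lie within a few FPKM of each other, the 5′ piece is lower in both iPSC groups, and the Airn bars reach 15.5 or more in SSC and at most 0.986 in iPSC.

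Trappc9 encodes a subunit of the TRAPP II complex, which acts in traffic through the Golgi. Its locus, chr15:72691379-73061119 on the minus strand, was at 4.55, 6.86 and 6.42 FPKM in SSC, at 5.78, 6.86 and 4.95 FPKM in SSCiPSC and at 5.91, 6.39 and 5.71 FPKM in fiPSC. The 3 groups overlapped. The log2 difference was -0.01 ± 0.24 in SSCiPSC against SSC (limma, adjusted p = 0.98), with a 95% interval from -0.59 to 0.57, and 0.03 ± 0.20 in fiPSC against SSC (adjusted p = 0.92), with an interval from -0.46 to 0.52. Of 11 tested genes of the TRAPP complex, of 13 listed, 4 were higher and 7 not past the threshold in SSCiPSC against SSC, where 26.2% of all loci were higher. The largest 3 increases were 1.07 for Trappc6a, 1.0 for Trappc13 and 0.81 for Trappc4.

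Between the iPSC of different origin, 0 of the 10 genes were called in fiPSC against SSCiPSC (limma, adjusted p from 0.34 to 0.97). Few loci of any kind were, 23 of 33948 or 0.0678% (0.0236% higher and 0.0442% lower), while 11.7% had an unadjusted p under 0.05. The count was 6 without fiPSC 1, 8 without fiPSC 3, 9 without SSCiPSC 2 and 6 with a replicate block. Impact was the 1 gene of the 10 with an unadjusted p under 0.05, with a log2 difference of -0.37 and a 95% interval from -0.66 to -0.08. For Plagl1 the difference was -0.56 with an interval from -1.12 to 0.01. In these 2 genes all fiPSC libraries were below all SSCiPSC libraries, as groups did not overlap at 18.6% of all loci. For the other 8 the log2 differences lay between -0.19 and 0.26 and each interval held 0, the narrowest running from -0.30 to 0.21 for Slc38a4 and the widest from -0.68 to 0.41 for Nnat and from -0.72 to 0.35 for Zdbf2.

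Tested singly, each of the 8 genes called in the comparisons with SSC gave an exact permutation p of 0.1, two-sided, the smallest that 3 against 3 libraries allow. Igf2r gave 0.1 in SSCiPSC against SSC and 0.2 in fiPSC against SSC, and Trappc9 gave 0.9 and 1.

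Genes listed as neighbours of these 10 on the chromosome moved with some of them and against others. They were listed by position and were not chosen as genes free of imprinting. Of 29 neighbours listed, 19 had a locus and 17 were tested in SSCiPSC against SSC, of which 9 were higher, 1 was lower and 7 did not pass, against 26.2% of all loci higher and 24.1% lower, with a median log2 difference of 0.75 against 0.11. Beside Zdbf2, Adam23 rose by 3.10 and Fastkd2 by 1.56. Beside Grb10, which fell, Ddc rose by 2.92, from 0, 2.09 and 2.57 FPKM in SSC to 15.8, 19.1 and 13.1 FPKM in SSCiPSC, and Cobl rose by 3.50, from 1.81, 2.19 and 3.18 FPKM to 23.5, 51.1 and 41.7 FPKM. Beside Impact, Osbpl1a rose by 1.61, while Cables1, with a difference of -0.63, did not pass.

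Beside Nnat and Blcap, Ctnnbl1, a splicing-associated protein, rose by 1.39 and Tgm2, with a difference of -0.93, did not pass in SSCiPSC. Around Gnas, Stx16 with 0.39, Npepl1 with 0.12 and Ctsz with 0.20 did not pass, and Tubb1, at 0 in all SSC libraries and at most 0.0895 FPKM elsewhere, was under the filter. Beside Trappc9, Ago2, which loads small RNAs, rose by 0.75 and Chrac1, with 0.60, did not pass. Mas1, beside Igf2r, was under 0.5 FPKM in all libraries. Gpr1, Amigo2, Hrh4, Vstm2l, Slc22a2, Slc22a3, Airn, Kcnk9 and Peg13 were among those with no locus of their own.

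**Figure D4:**
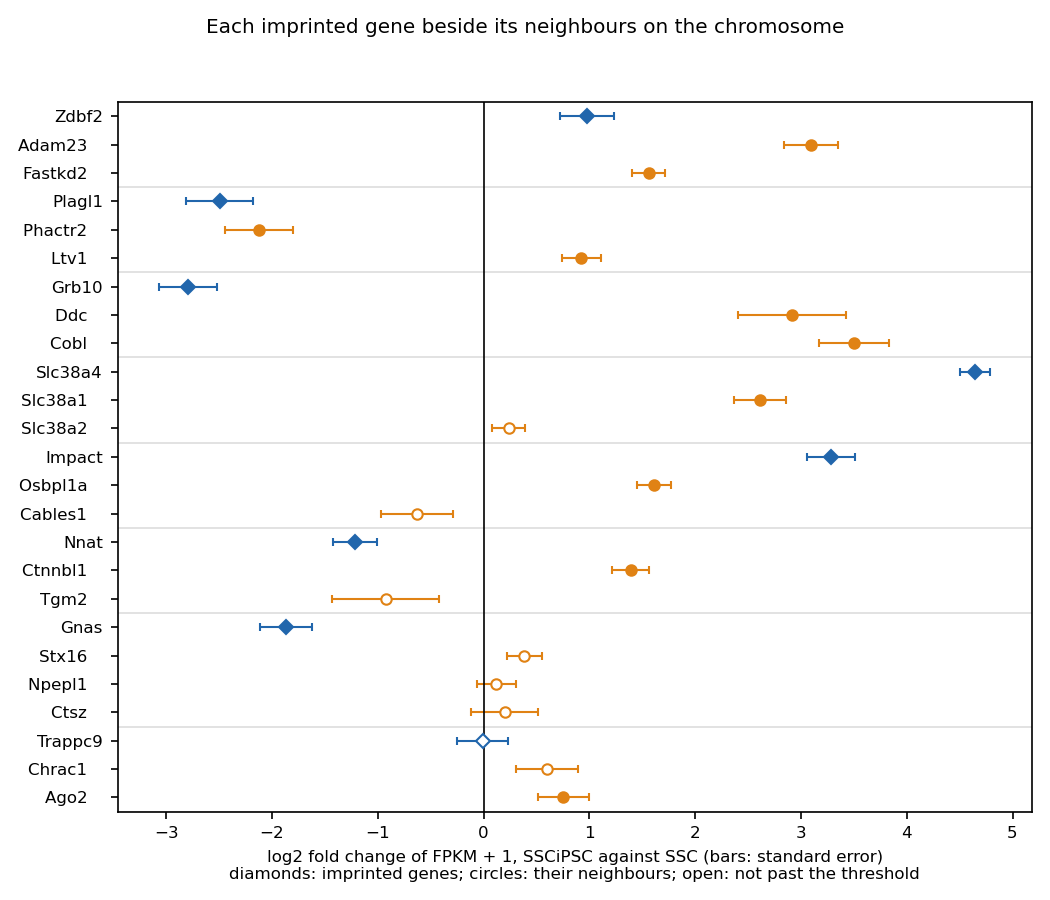
Log2 fold change of FPKM + 1 with its standard error in SSCiPSC against SSC for 8 of the imprinted genes (diamonds) and the tested neighbours listed for each (circles), with open symbols for those not past the threshold. Grb10 lies at -2.79 while Ddc and Cobl lie at 2.92 and 3.50, and Gnas lies at -1.87 while its 3 neighbours lie between 0.12 and 0.39.

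Among imprinted genes elsewhere, of 23 others known for paternal expression only 8 had a locus, and 7 were tested in SSCiPSC against SSC, of which 2 were higher, 2 lower and 3 not past the threshold, against 26.2% of all loci higher and 24.1% lower. Peg3 rose by 1.87 on the log2 scale, from 17.3, 15.7 and 24.5 FPKM to 71.1, 62.2 and 81.9 FPKM, and Usp29 rose by 1.21. Dlk1 fell by 4.11 on the scale of FPKM + 1, from 13.2, 15.6 and 43.8 FPKM to 0.207, 0.237 and 0.379 FPKM, and Sgce fell by 1.26. Usp29 and Dlk1 passed the filter through 1 group alone and so had to differ, which leaves 1 call each way. Peg10 with -0.23, Peg12 with 0.47 and Sfmbt2 with 0.08 did not pass, and Magel2 was under the filter.

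Of 26 others known for maternal expression 18 had a locus and 15 were tested, of which 3 were higher, 5 lower and 7 not past the threshold, against 26.2% of all loci higher and 24.1% lower. The noncoding RNA Mirg rose by 2.52, Phlda2 by 2.26 and the noncoding RNA Rian by 2.19. The cell cycle inhibitor Cdkn1c fell by 3.37, from 19.2, 19.6 and 23.7 FPKM to between 0.908 and 1.32 FPKM, H19 fell by 3.25, from 70.6, 61.9 and 111 FPKM to 8.01, 5.53 and 9.04 FPKM, and Osbpl5 fell by 1.62. Osbpl5 and Zim1, 2 of the 5 lower genes, passed the filter through SSC alone. The median log2 difference was -0.09 in this group and 0.08 in the paternal one, against 0.11 over all loci. In fiPSC against SSC, 4 of 6 tested paternal genes were higher and 1 lower, with a median of 0.91, and 5 of 16 maternal genes were higher and 3 lower, with a median of 0.23, against 28.0% of all loci higher, 23.7% lower and a median of 0.17. Of these calls, 1 higher and 1 lower in each list passed the filter through 1 group alone and so had to differ. In fiPSC against SSCiPSC the medians were 0.53 over 6 paternal and 0.39 over 14 maternal genes, against 0.01 over all loci, and 0 genes of either list were called.

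Of 15 tested genes that keep, write or erase imprints, of 16 listed, 10 were higher, 2 lower and 3 not past the threshold in SSCiPSC against SSC, against 26.2% of all loci higher and 24.1% lower, and the median log2 difference was 1.32 against 0.11 over all loci. Tet1, which oxidizes methylcytosine, rose by 6.40, from 1.48, 1.55 and 1.36 FPKM to 180, 205 and 243 FPKM. Dnmt3l, the partner of the de novo methyltransferases, rose by 6.15, from 0.622, 0 and 0 FPKM to 62.0, 110 and 81.8 FPKM. Zfp57, whose motif core was sought in the promoters above, rose by 4.31, from 9.27, 9.31 and 7.36 FPKM to 175, 254 and 154 FPKM. The decreases were in Tet3, by 3.74, from 18.7, 17.5 and 21.6 FPKM to 0.412, 0.484 and 0.659 FPKM, and in Kdm1b, by 1.06. Dnmt3l and Tet3 passed the filter through 1 group alone and so had to differ, and the size of their log2 change depends on the pseudocount; without them 9 genes were higher and 1 lower.

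The gene profiles most like those of the extremes were sought over the 9 libraries among 7036 named genes, by the root mean square difference of centred log2 values. For Slc38a4, the gene that rose most, they included Glt1d1 (0.124) and Pfkp (0.177). Pfkp, a phosphofructokinase, went from 9.06, 8.67 and 8.60 FPKM in SSC to 261, 161 and 241 FPKM in SSCiPSC. For Grb10, the gene that fell most in SSCiPSC, they were Zfp36 (0.169), Abhd2 (0.178) and Emp3 (0.199). Likeness here rests largely on the step from SSC to iPSC.

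The SSC libraries held RNA of other testis cells as well. Of 14 tested germ line markers 10 were lower and 3, Etv5, Sall4 and Kit, higher in SSCiPSC against SSC, where 24.1% of all loci were lower and 26.2% higher; 5 of the 10 lower ones, Gfra1, Ret, Zbtb16, Lhx1 and Sohlh1, passed the filter through SSC alone and so had to differ. Gfra1, used for the sort, was at 37.7, 34.1 and 23.9 FPKM in SSC, and it, Ret and Zbtb16 were at most 0.592 FPKM in iPSC. The summed FPKM of 14 germ line markers, of 16 listed, was 670, 815 and 547 in SSC and 289 to 489 in iPSC. Of 11 Sertoli cell markers 9 had a locus, with sums of 1037, 1041 and 896 FPKM in SSC, where Clu led with 713, 645 and 538 FPKM, and of 3.16 to 7.97 FPKM in iPSC, where Cst12, Fshr and Rhox8 were at 0. Of 7 Leydig cell markers 4 had a locus, with sums of 164, 132 and 255 FPKM in SSC, led by Cyp11a1, and of at most 0.358 FPKM in iPSC, where Lhcgr and Nr5a1 were at 0. In bulk RNA, fewer cells of a type and less RNA per cell cannot be told apart.

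Mast cell markers, 4 of 4 with a locus and led by Tpsab1, varied most among the SSC libraries, with sums of 94.9, 370 and 1022 FPKM, and were at most 0.0806 FPKM in iPSC, with Tpsab1 and Mcpt4 at 0. Macrophage markers, 5 of 6, summed to 46.1, 14.0 and 132 FPKM in SSC and to 8.67 to 14.2 FPKM in iPSC, where most of the sum was Cd68. Fibroblast or feeder markers, 8 of 8 and led by Col3a1, summed to 116, 108 and 307 FPKM in SSC and to 10.9 to 42.3 FPKM in iPSC. Peritubular myoid markers, 4 of 5 and led by Acta2, summed to 87.3, 80.6 and 69.4 FPKM in SSC and to 9.0 to 12.6 FPKM in iPSC.

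Endothelial markers, 4 of 4, summed to 106, 53.1 and 89.3 FPKM in SSC and to 83.4 to 127 FPKM in iPSC, with Pecam1 leading in both, while Cdh5 was at 22.2, 12.6 and 27.2 FPKM in SSC and at most 0.0458 FPKM in iPSC. Pluripotency markers, 8 of 11, summed to 56.9, 61.7 and 65.6 FPKM in SSC and to 1635 to 2153 FPKM in iPSC, led by Pou5f1, to which the transgene may add reads. Nanog and Fgf4 were at 0 in all SSC libraries.

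The germ line, Sertoli, Leydig, myoid, mast cell, fibroblast and pluripotency sums of SSC and iPSC lay apart, while the macrophage and endothelial sums overlapped. The part of other testis cells in the changes of Plagl1, Grb10, Nnat, Blcap and Gnas was not tested. Nor was it tested for the other decreases from SSC to iPSC. These include the 5′ piece of Igf2r, the Airn loci, H19, Dlk1 and the lower genes of insulin, IGF and cAMP signalling. SSC 3 had the highest Leydig, mast cell, macrophage and fibroblast sums of the SSC libraries and the lowest germ line, Sertoli and myoid sums, and it was the highest SSC library for Plagl1, Nnat, Blcap and Gnas. SSC 3 was also the highest SSC library for H19 and Dlk1. Without it the log2 differences in SSCiPSC against SSC were -2.25 for Plagl1, -2.68 for Grb10, -1.06 for Nnat and -1.72 for Gnas, all still past the threshold (adjusted p from 0.0018 to 0.0073), and -0.59 for Blcap, which was not (adjusted p = 0.072).

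**Figure D5:**
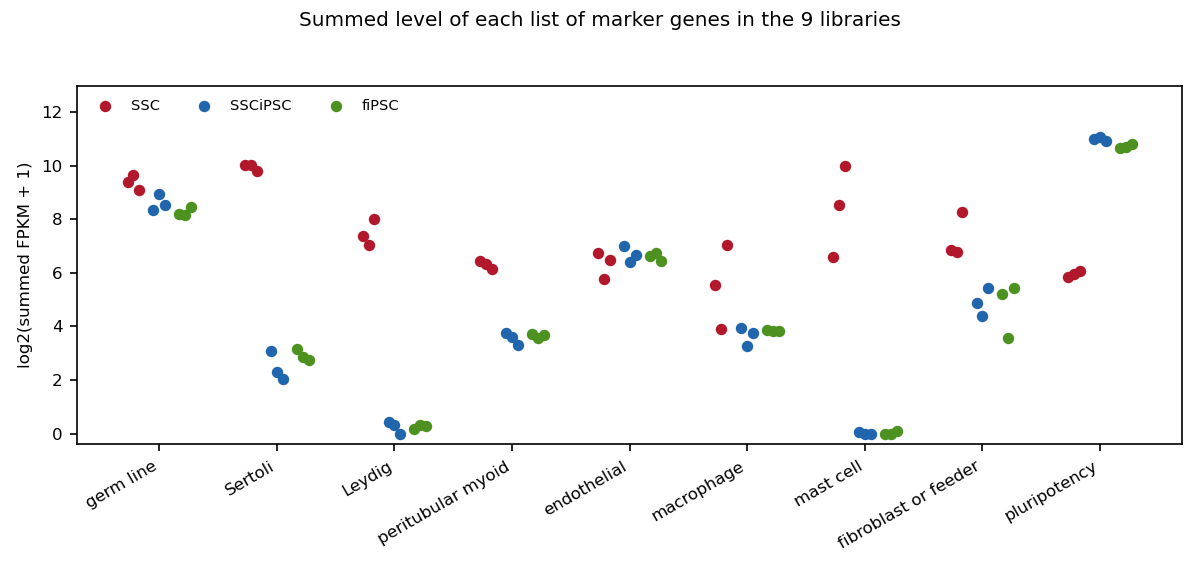
Summed FPKM of each list of marker genes as log2(sum + 1), with 1 point per library for SSC, SSCiPSC and fiPSC. Sertoli, Leydig and mast cell sums are at most 7.97 FPKM in iPSC and at least 94.9 FPKM in SSC, and the mast cell sum spreads most within SSC.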

How the data were processed

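The authors made libraries with a TruSeq Stranded mRNA kit and sequenced them in pairs; the labels also name depletion of ribosomal RNA, so whether poly(A) RNA was selected is unclear. Per the labels, they processed reads with Trimmomatic 0.32, TopHat2 2.0.9, Bowtie2 2.1.0, Cufflinks 2.2.1 and Cuffdiff. The deposited table gives FPKM per locus and library. The labels name build mm9, but 3038 stranded loci match both ends of a GRCm38 protein-coding gene within 300 bp (98.1% on its strand), against 3 and 2 after shifts of 1000000 bp, so GRCm38 was used. Of 54914 loci, 1 with a blank value was dropped; strand was inferred from the order of 3 blocks per chromosome, 38550 have none and 23605 share their interval with another. A locus was named for the only GENCODE M21 gene of its strand overlapping at least 50% of the shorter of both; one without strand stood for a gene only if it covered 50% of it.

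Libraries were grouped by the labels. Groups were compared with limma 3.58.1 (R 4.3.3; trend, log2(FPKM + 1), two-sided), over loci of at least 1 FPKM in at least 3 libraries, with Benjamini-Hochberg adjustment at 0.05; single genes also had exact permutation tests. Scripts ran in Python 3.11.15 and were tested on simulated data. Of log2 changes of 1 planted there, 36% were recovered in SSCiPSC against SSC, 59% in fiPSC against SSC and 60% in fiPSC against SSCiPSC. Of changes of 2, 88%, 94% and 90% were recovered. False calls made up 5.34%, 8.38% and 5.06% of the calls. The 10 genes and all lists were chosen with earlier results of these data known. The text names all 10 genes, every neighbour with a locus and, from each other list, the 3 genes that moved most each way past the threshold in SSCiPSC against SSC, or all genes of lists with fewer than 10 loci; markers named by cell type, and genes named only because they passed the filter through 1 group alone, are exceptions chosen after their values were seen. Depth was read from the steps of FPKM values, and intervals and limits on 0 cover counting error only where fragments are given. Alternatives changed the pseudocount, filter, scaling, variance model, locus choice, block and libraries. Some named items are not reported here.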

Additional observations from a re-analysis of the deposited data

How the results depend on the processing

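The number of genes called was 8 in SSCiPSC against SSC and in fiPSC against SSC and stayed between 6 and 9 in both under the alternatives (6 to 8 with 1 library left out), and it was 0 in fiPSC against SSCiPSC under each of them. Plagl1, Grb10, Slc38a4, Impact, Nnat and Gnas kept direction and call under all 16 alternatives in both comparisons with SSC, Zdbf2 under 13 and 14 of them and Blcap under 9 and 13. Quantile normalization called Igf2r. The FPKM of all loci summed to between 841963 and 868707 in the SSC libraries and to between 1106484 and 1416064 in the iPSC libraries. Scaling to equal sums was not tried, so small differences, and genes that did not pass, may also rest on this. Median-ratio scaling moved the median over all loci from 0.11 to 0.23 in SSCiPSC against SSC and from 0.17 to 0.30 in fiPSC against SSC, and quantile normalization to 0.05 in both, so small differences are relative to these shifts; the Blcap difference in SSCiPSC against SSC under the first was -0.53 (adjusted p = 0.082). Differences near 0 changed sign: Trappc9 in SSCiPSC against SSC was 0.11 after quantile normalization and 0.13 after median-ratio scaling, Igf2r in fiPSC against SSC was 0.079 after median-ratio scaling, and Slc38a4 in fiPSC against SSCiPSC was 0.085 after quantile normalization. With 1 library left out, Trappc9 ranged from -0.16 to 0.088 in SSCiPSC against SSC, from -0.13 to 0.13 in fiPSC against SSC and from -0.060 to 0.14 in fiPSC against SSCiPSC; in the last comparison Slc38a4 ranged from -0.11 to 0.0064, Nnat from -0.30 to 0.11, Gnas from -0.17 to 0.23 and Blcap from -0.14 to 0.031. The cause was not tested. Replicate numbers are shared between groups, but the libraries were not treated as pairs in the main fits. Deviations of same-numbered libraries from their group means correlated across loci between -0.40 and 0.12. With 3 libraries a group, such correlations cannot decide whether the libraries are paired. With a replicate block 7 genes were called in each comparison with SSC and 0 in the third, Blcap being lost at -0.68 (adjusted p = 0.072) and -0.71 (adjusted p = 0.054), and calls over all loci went from 18396 to 16926, from 19680 to 17546 and from 23 to 6; not every library correlated best with its own number. Calls over all loci in fiPSC against SSCiPSC were also 11 with all 9 libraries in the fit, 10 at a mean of at least 5 FPKM and 6 to 20 with 1 library left out, with 6 without fiPSC 1, 8 without fiPSC 3 and 9 without SSCiPSC 2. The SSC libraries, with about 1370000 to 4570000 fragments, limit what can be read from low values.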

Other observations

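Loci without strand that could not be given to a gene lay in the intervals of several of these genes; those before Zdbf2 and in Trappc9 and Gnas are given here. In the interval chr1:63182644-63303595 before Zdbf2, 21 loci without strand had summed levels of 0, 1.71 and 0.684 FPKM in SSC, of 54.6, 56.9 and 62.6 FPKM in SSCiPSC and of 65.1, 53.2 and 61.5 FPKM in fiPSC. All 21 were above 0 in each SSCiPSC and fiPSC library, and 17 were at 0 in all 3 SSC libraries, which are the shallower ones. The interval also holds Gpr1 and Platr12, and the table gives these loci the coordinates of the whole interval, so their places within it are not known.

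In the interval of Trappc9, chr15:72691379-73061119, 1 of 2 loci without strand was at 116, 125 and 100.3 FPKM in SSC, at 73.5, 59.9 and 90.7 FPKM in SSCiPSC and at 89.0, 73.0 and 62.5 FPKM in fiPSC, well above Trappc9 itself. Its log2 difference was -0.62 ± 0.18 in SSCiPSC against SSC (limma, adjusted p = 0.030) and -0.61 ± 0.16 in fiPSC against SSC (adjusted p = 0.020). Peg13, a noncoding RNA known for paternal expression, lies in an intron of Trappc9 at chr15:72805600-72810324 on the minus strand, but nothing in the table ties the locus to it.

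In the interval of Gnas, chr2:174281695-174346636, 15 loci without strand summed to 13.9, 43.6 and 14.6 FPKM in SSC, to 35.4, 61.1 and 40.3 FPKM in SSCiPSC and to 48.1, 43.0 and 60.7 FPKM in fiPSC, so that SSC 2 lay among the iPSC libraries. A single locus gave 26.5 FPKM of the SSC 2 sum. That locus was at 0 in SSC 1 and SSC 3 and at 11.9 to 24.2 FPKM in the iPSC libraries.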
